A study of Mus musculus with 6 samples.

Results

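The tripartite motif (TRIM) genes were followed in RNA from a pair of mouse endothelial cell lines. They were taken by symbol, as every gene of the table named Trim plus digits and at most 1 letter, which gave 66 of 24411 genes. Of these, 8 lie together on chromosome 7 and encode antiviral relatives of TRIM5, and they were set against the other 58. Bulk RNA-seq had been made from 6 libraries, 3 from the line bEnd.3 (strain BALB/c) and 3 from the line UV2, also written UV♀2 (strain (BALB/c x C57BL/6)F1). Both were labelled as endothelial cells, and bEnd.3 comes from mouse brain and carries the polyomavirus middle T oncogene. Both were confluent on 10-cm dishes, washed and left without serum for 3 days, with no agent or genotype that differed between them in the labels. Each group is therefore 1 established line, and line and strain cannot be told apart. Tissue of origin and the middle T oncogene, given here for bEnd.3 alone, cannot be told apart from line. RNA of 4 abundant Y chromosome genes also differed with the line (median log2 fold change of UV2 over bEnd.3 -10.8). A part of sex or of the Y chromosome cannot be told apart from line either. The labels do not say whether replicate libraries were grown as separate cultures, and the p-values rest on the spread between these libraries alone, which may be technical.

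TRIM proteins carry a RING domain, 1 or 2 B-boxes and a coiled coil, and most act as E3 ubiquitin ligases, which join ubiquitin to chosen substrates with the help of an E2 enzyme. Their C-terminal part, often a SPRY domain, chooses the substrate and sorts the family into classes. Many members act in antiviral defence, as capsid-binding restriction factors or as regulators of the sensors that induce interferon, and several are themselves induced by interferon. A few, such as TRIM14, TRIM16, TRIM44 and TRIM66, lack the RING domain.

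Total expected counts were 21306441 to 28748128 per library. Levels are given as CPM, counts relative to library totals scaled by the TMM method, quoted for replicates 1, 2 and 3 in that order, and each log2 ratio is the fitted log2 fold change of UV2 over bEnd.3, given with its standard error (SE). Adjusted p-values come from the quasi-likelihood test of edgeR, with the Benjamini-Hochberg method applied over 12720 tested genes, and a gene is called at an adjusted p under 0.05. The lines differed widely: 67.1% of all tested genes were called, 33.9% higher and 33.3% lower in UV2, and 19.4% differed by more than 2-fold in a test of that size. In 73.2% of tested genes all libraries of one line lay above all of the other (no overlap). All 8 endothelial markers listed were at 1 CPM or more in both lines. Of 8 leukocyte markers only Cd68 exceeded 1 CPM and Adgre1 and Cd3e were at 0 in every library. The fibroblast and mural list summed to 1.93 to 3.22 CPM in bEnd.3 and 11.5 to 22.5 CPM in UV2. Of its 9 genes only 1 had a mean of 1 CPM or more in bEnd.3 and only 2 in UV2, so this sum rests on few genes. In bulk RNA, fewer cells that express a gene and less RNA per cell cannot be told apart.

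The cluster genes are shown first by sequence, because their close kinship bears on how their reads were counted. In the GENCODE M21 annotation of GRCm38, the assembly of mm10, the 8 genes run from the start of Trim6 to the end of Trim30d, chr7:104218793-104507849. Trim6, Trim34a and Trim34b are on the plus strand and Trim12a, Trim12c, Trim30a, Trim30b and Trim30d on the minus strand. The list also held Trim5, Trim12b and Trim30c, which are no rows of the table. Coding sequences of the first copy pair, Trim12a (891 bases) and Trim12c (1491 bases), were identical at 96.4% of 891 aligned bases. The rest of the Trim12c coding sequence has no aligned counterpart in Trim12a. Bases 9 to 98 of both coding sequences follow, read along the gene with differences in capitals; 75 consecutive bases are the unit used below for shared sequence.
Trim12a: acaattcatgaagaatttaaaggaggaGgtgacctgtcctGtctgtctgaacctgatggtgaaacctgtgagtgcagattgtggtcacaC
Trim12c: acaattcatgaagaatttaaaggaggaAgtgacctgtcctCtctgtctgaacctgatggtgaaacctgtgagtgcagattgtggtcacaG

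Trim34a and Trim34b were closer, with 98.2% identity over 1451 aligned coding bases and 1 difference in the stretch from coding base 18 to 107.
Trim34a: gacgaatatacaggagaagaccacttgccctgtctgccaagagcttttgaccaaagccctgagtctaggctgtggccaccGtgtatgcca
Trim34b: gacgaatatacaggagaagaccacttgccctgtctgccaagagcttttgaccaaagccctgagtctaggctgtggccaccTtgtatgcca

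Trim30a and Trim30d were the least alike of these pairs, with 90.2% identity over 1488 aligned bases and 8 differences among the first 90 coding bases.
Trim30a: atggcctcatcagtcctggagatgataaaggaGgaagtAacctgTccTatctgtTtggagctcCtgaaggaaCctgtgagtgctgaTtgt
Trim30d: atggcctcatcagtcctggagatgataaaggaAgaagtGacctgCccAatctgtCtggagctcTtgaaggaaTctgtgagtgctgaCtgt

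Stretches of 75 bases from Trim34b transcripts also occurred in Trim34a in 42.5% of cases. The share was 5.25% for Trim30d in Trim30a and 4.34% for Trim12a in Trim12c, so a read of that length could often tell those pairs apart on the reference genome. Expected counts divide reads that fit several genes among them. The 3 pairs had values that were not whole, and each pair's sum was whole within 0.02 in all 18 sums of a pair in a library. Trim12c was whole in the 3 bEnd.3 libraries, where Trim12a was at 0, and not whole in UV2.

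Promoters of the cluster are shown because interferon acts on its targets through the interferon-stimulated response element, whose core is GAAANNGAAA. The RefSeq windows (GRCm38.p6, 250 bases before to 50 after the start) were searched for this core on both strands, counting overlapping matches. It was in 3.99% of 27025 genes with a window and 3.44% of 32851 windows. Of 66 TRIM genes, 51 had a window, and 8 (15.7%) held the core. In the cluster 5 of 8 (62.5%) did, namely Trim12a, Trim12c, Trim30a, Trim30d and Trim34a. Outside the cluster 3 of 43 (6.98%) did, namely Trim2, Trim21 and Trim26. The 30 bases around it are printed along the gene with the core in capitals (its complement where it lies on the other strand), from the windows chr7:104315446-104315745 (Trim12a), chr7:104353300-104353599 (Trim12c), chr7:104465144-104465443 (Trim30a), chr7:104507800-104508099 (Trim30d), all on the minus strand, chr7:104244207-104244506 (Trim34a, plus strand) and chr7:102565433-102565732 (Trim21, minus strand, outside the cluster).
Trim12a: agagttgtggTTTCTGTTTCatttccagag
Trim12c: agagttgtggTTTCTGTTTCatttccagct
Trim30a: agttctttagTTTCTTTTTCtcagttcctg
Trim30d: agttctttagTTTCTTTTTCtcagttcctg
Trim34a: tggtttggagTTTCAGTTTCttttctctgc
Trim21: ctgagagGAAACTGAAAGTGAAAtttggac

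The printed stretches of Trim30a and Trim30d are the same, and those of Trim12a and Trim12c differ only in their last bases. The 5 cluster genes with the core are thus not 5 separate cases. In the printed windows the core lies after the start in Trim12a, Trim34a and Trim21, and before it in Trim12c, Trim30a and Trim30d. Trim21 held 2 overlapping matches. A match is a description of letters and not a binding site, and the genes that hold it did not move one way between the lines, as the values below show.

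Across the 66 TRIM genes, 10 had no count in any library: Trim29, Trim42, Trim50, Trim52, Trim55, Trim58, Trim60, Trim61, Trim75 and Trim80. Another 13 were detected but too low to be tested (Trim10, Trim17, Trim31, Trim36, Trim38, Trim43a, Trim43b, Trim43c, Trim63, Trim67, Trim69, Trim71 and Trim72). The remaining 43 were tested. In UV2, 18 were higher and 13 were lower, and 12 did not pass. The 31 called are 72.1% of those tested, beside 67.1% of all genes, and 32 (74.4%) had no overlap between lines, beside 73.2%. Both shares are near the background of this comparison. The median log2 ratio was 0.17 for TRIM genes and -0.01 for all genes, and the median absolute log2 ratio was 0.53 and 0.50. Summed over all 66, TRIM RNA was 2219, 2193 and 2319 CPM in bEnd.3 and 2408, 2368 and 2474 CPM in UV2. On the same scale the sum over all genes was also higher in UV2. It was 9.735e+05 to 9.838e+05 CPM in bEnd.3 and 1.005e+06 to 1.032e+06 CPM in UV2, so part of the TRIM difference lies in the scaling.

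**Figure D1:**
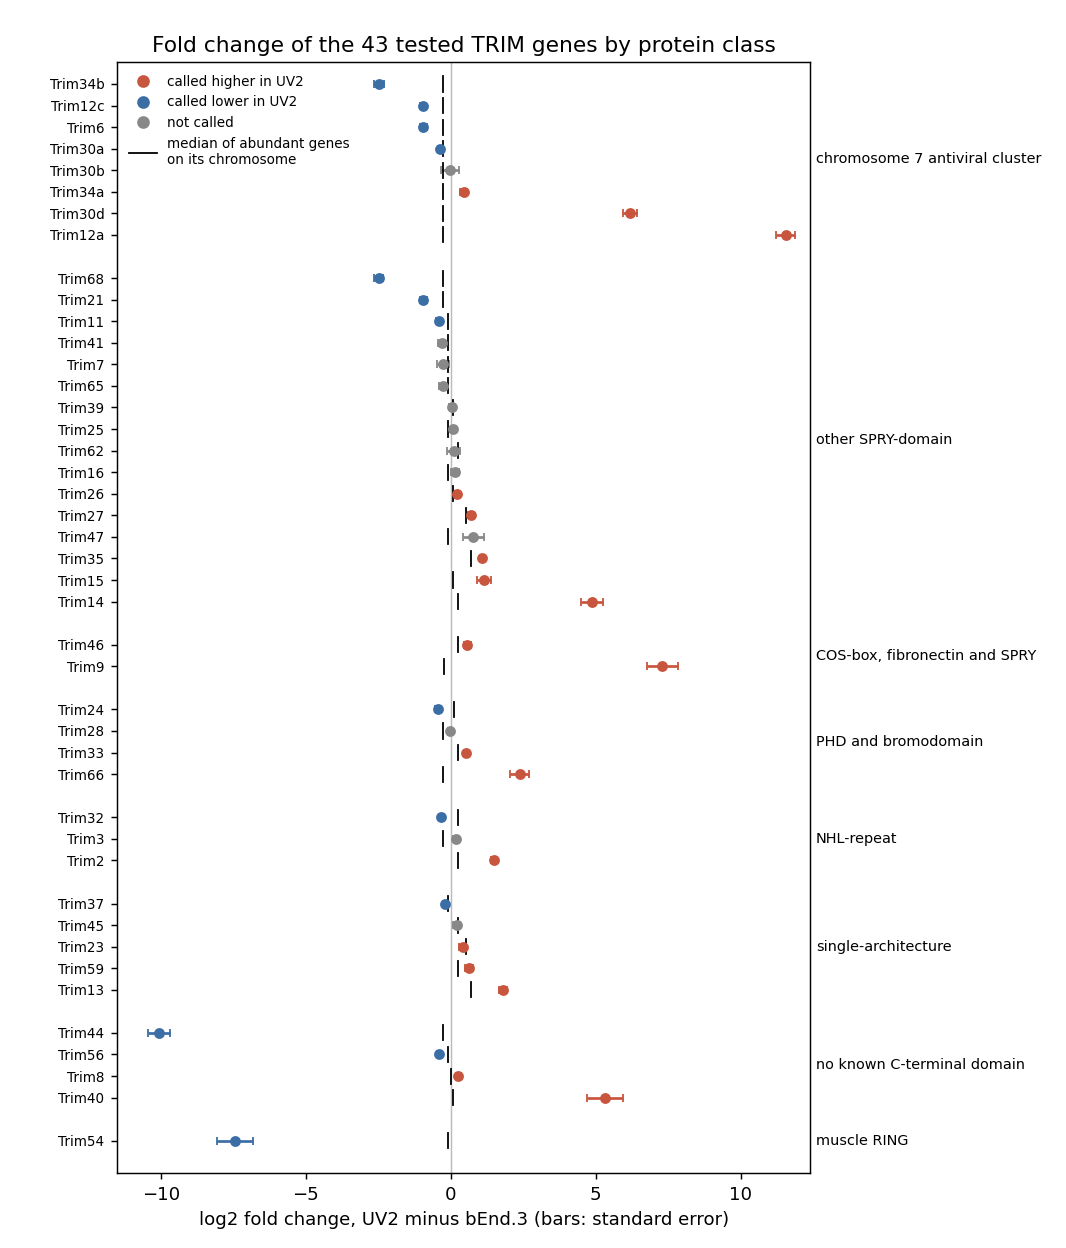
Points give the log2 fold change (UV2 minus bEnd.3, x axis) of each of the 43 tested TRIM genes, grouped by protein class, with bars for the standard error and a black tick for the median of the abundant genes on the same chromosome. Most points lie near 0, while Trim12a, Trim9, Trim30d, Trim40 and Trim14 lie far to the right and Trim44 and Trim54 far to the left.

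The chromosome 7 cluster was mixed in direction. All 8 genes were tested, and 3 were higher in UV2 (Trim12a, Trim30d and Trim34a), 4 were lower (Trim12c, Trim30a, Trim34b and Trim6) and Trim30b did not pass. The 7 called are 87.5% of the cluster, compared with 24 of 35 (68.6%) among the other TRIM genes and 67.1% of all tested genes. All of them but Trim6 belong to the copy pairs, which share reads and are summed below, so they are not 7 separate differences. The median absolute log2 ratio was 0.95 in the cluster, 0.43 outside it and 0.50 over all genes. The signed medians were -0.19 in the cluster and 0.19 outside it. The cluster made up 20.1% of all TRIM CPM in bEnd.3 and 15.5% in UV2.

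Trim12a and Trim12c are rodent relatives of TRIM5, a restriction factor that binds incoming retroviral capsids. Trim12a had 0 counts in the 3 bEnd.3 libraries and stood at 14.9, 14.5 and 16.6 CPM in UV2. Its 1083 UV2 counts make it at least 392-fold higher there, taken against a floor of 3 counts over the bEnd.3 libraries (adjusted p = 2.56e-06). Trim12c stood at 140, 164 and 169 CPM in bEnd.3 and at 81.6, 76.5 and 83.4 CPM in UV2, with a log2 ratio of -0.97 (SE 0.09, adjusted p = 4.16e-05). The members of this pair moved in opposite directions, and neither gene overlapped between the lines. Together they fell from 140, 164 and 169 to 96.5, 91.0 and 99.98 CPM, a log2 ratio of -0.72 (SE 0.09, adjusted p = 0.000198).

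Trim30a and Trim30d belong to a rodent branch of the family. Trim30a is induced by interferon and by Toll-like receptor signalling and restrains the NF-kB pathway, and Trim30d, also called TRIM79, restricts flavivirus replication. Trim30a stood at 224, 222 and 231 CPM in bEnd.3 and at 172, 178 and 174 CPM in UV2 (log2 ratio -0.37, SE 0.06, adjusted p = 0.000829). Trim30d stood at 0.430, 0.435 and 1.02 CPM in bEnd.3 and at 46.1, 50.5 and 48.9 CPM in UV2, a 72.8-fold difference (log2 ratio 6.19, SE 0.24, adjusted p = 5.41e-07). Trim30b stayed below 1 CPM in all libraries and its fold change was -0.02 (adjusted p = 0.958). Trim30a and Trim30d moved apart. Their sum was 224, 222 and 232 CPM in bEnd.3 and 218, 229 and 223 CPM in UV2, which overlap. The log2 difference of the sum was -0.02, with a 95% interval of -0.155 to 0.120 (adjusted p = 0.81). The fall of Trim30a was no longer called, at -0.11 (adjusted p = 0.123), when the median of each chromosome was removed.

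Trim34a and Trim34b, neighbours of TRIM5 in evolution, showed the reverse pattern. Trim34a rose from 27.6, 31.1 and 33.6 to 41.2, 37.3 and 48.0 CPM (log2 ratio 0.45, SE 0.12, adjusted p = 0.00934). Trim34b fell from 18.7, 20.1 and 25.6 to 3.31, 3.94 and 4.45 CPM (log2 ratio -2.47, SE 0.17, adjusted p = 1.11e-05). The pair's sum was 46.4, 51.2 and 59.2 CPM in bEnd.3 and 44.5, 41.2 and 52.5 CPM in UV2, which overlap, with a log2 difference of -0.18 and a 95% interval of -0.463 to 0.098 (adjusted p = 0.212). Trim6, whose product makes unanchored ubiquitin chains in interferon signalling, has no close copy here. It fell from 12.9, 14.2 and 16.7 to 7.69, 7.12 and 8.02 CPM (log2 ratio -0.94, SE 0.13, adjusted p = 0.000423).

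**Figure D2:**
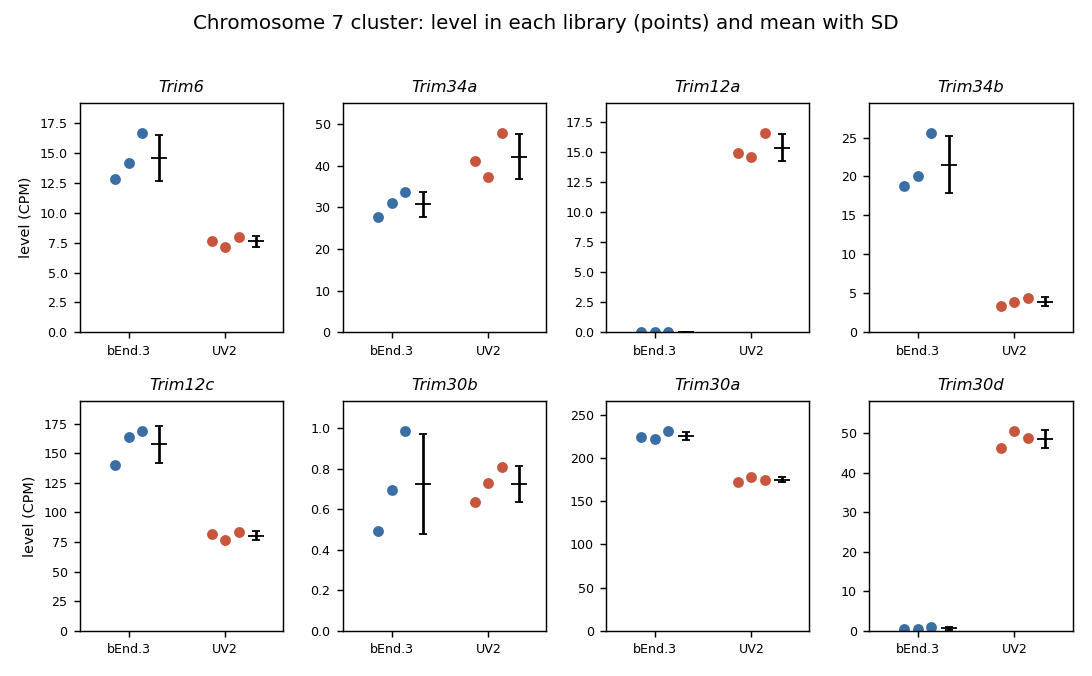
Each panel shows 1 gene of the chromosome 7 cluster, with the level in CPM (y axis, starting at 0) in the 3 bEnd.3 and 3 UV2 libraries as points and the mean with SD beside them. Trim12a and Trim30d are at or near 0 in bEnd.3 and clearly expressed in UV2, while Trim34b, Trim12c and Trim6 are lower in UV2 and Trim30b overlaps.

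Within each pair the share of the minor copy differed between the lines by far more than its SD over libraries (n = 3 in each line). Trim12a made up 0% of its pair in bEnd.3 and 16.0% ± 0.586 in UV2. Trim30d made up 0.275% ± 0.141 and 21.7% ± 0.495. Trim34b went the other way, from 41.0% ± 2.06 to 8.49% ± 1.05. Summed over all 8 genes the cluster stood at 424, 452 and 477 CPM in bEnd.3 and at 368, 369 and 384 CPM in UV2, a log2 ratio of -0.27 (SE 0.07, adjusted p = 0.00913). The median over 659 abundant chromosome 7 genes was -0.25. The reference is a C57BL/6 genome, of which bEnd.3 carries none by its strain label, and a difference in expression of 1 copy and a different division of reads between copies cannot be told apart for these pairs.

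**Figure D3:**
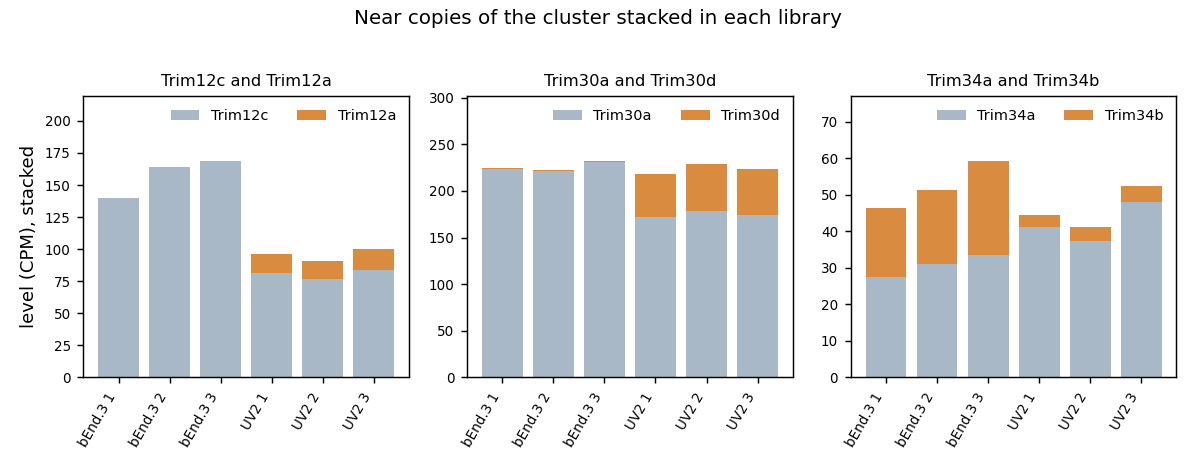
Bars stack the level in CPM (y axis, starting at 0) of the members of a copy pair in each of the 6 libraries. The orange part, the minor copy, appears in UV2 for Trim12a and Trim30d and shrinks in UV2 for Trim34b, while the height of the stacks overlaps between the lines for the Trim30 and Trim34 pairs.

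Other SPRY-domain genes form the class that holds several regulators of RNA sensing. Of the 28 listed genes with a row, 16 were tested, with 5 higher, 3 lower and 8 not called (50% called, beside 67.1% of all genes) and a median log2 ratio of 0.10. Trim25, which ubiquitinates the RNA sensor RIG-I, was the most abundant TRIM gene and did not differ detectably, at 437, 374 and 433 CPM in bEnd.3 and 446, 411 and 472 CPM in UV2 (log2 ratio 0.10, SE 0.09, adjusted p = 0.364). Trim21, a cytosolic antibody receptor, lies on chromosome 7 outside the cluster and fell from 36.8, 44.6 and 42.0 to 22.2, 18.8 and 23.2 CPM (log2 ratio -0.94, SE 0.11, adjusted p = 0.000187). Trim68, a coactivator of the androgen receptor on the same chromosome, fell from 11.5, 12.0 and 13.9 to 2.62, 1.89 and 2.16 CPM (log2 ratio -2.48, SE 0.16, adjusted p = 8.19e-06). Neither gene overlapped between the lines.

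The highest log2 ratio among these 16 was that of Trim14, an adaptor of the mitochondrial antiviral protein MAVS. It stood at 0.269, 0.0407 and 0.339 CPM in bEnd.3 and at 7.73, 5.91 and 6.28 CPM in UV2, a 29.4-fold difference (log2 ratio 4.88, SE 0.39, adjusted p = 2.44e-05). Exons of Trim14 overlap those of Nans by 1356 bases, read in opposite directions. Whether counting used strand is not given, so reads of the pair may be shared. Nans itself was at 29.9, 26.2 and 26.7 CPM in bEnd.3 and 31.0, 32.8 and 28.7 CPM in UV2 and was not called (adjusted p = 0.159). Coro2a, the next tested gene on the other side of Trim14, was at 0.0448, 0 and 0 CPM in bEnd.3 and at 1.44, 1.41 and 1.73 CPM in UV2. This neighbour and those named below were looked at after the values of the TRIM genes were seen.

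Trim15, a focal adhesion protein, was low but higher in UV2 (log2 ratio 1.14, SE 0.24, adjusted p = 0.00366). Trim27, first known as a fusion partner of RET, rose from 38.6, 31.7 and 32.4 to 54.1, 54.4 and 56.9 CPM (log2 ratio 0.69, SE 0.09, adjusted p = 0.00031). Trim35, named here after its values were seen, rose from 105, 120 and 119 to 236, 253 and 234 CPM (log2 ratio 1.07). Neither gene's lines overlapped. These rises stand beside chromosome medians of 0.52 over 307 genes on chromosome 13 (Trim27) and 0.72 over 318 genes on chromosome 14 (Trim35), and with those medians removed Trim27 was not called (0.16, adjusted p = 0.149) and Trim35 stood at 0.36. Trim16, a RING-less protein of the response to damaged lysosomes, was not called (0.17, adjusted p = 0.313) but reached 0.35 without bEnd.3 replicate 1 and was then called. Trim41 (-0.31, adjusted p = 0.0508) and Trim47 (0.78, adjusted p = 0.0877) were likewise called without that library, at -0.41 and 1.27. Trim39 did not pass (0.05, adjusted p = 0.714).

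The PHD and bromodomain class acts on chromatin. Trim28, the corepressor that KRAB zinc finger proteins recruit to silence retroelements, was not called, at 217, 201 and 195 CPM in bEnd.3 and 208, 203 and 191 CPM in UV2 (log2 ratio -0.03, SE 0.07, adjusted p = 0.754). Relative to the chromosome 7 median it was higher in UV2, by 0.23 (adjusted p = 0.0232). Trim33, which regulates SMAD4 and transforming growth factor signalling, rose from 53.7, 60.5 and 54.2 to 82.8, 81.2 and 79.3 CPM (log2 ratio 0.53, SE 0.07, adjusted p = 0.000305). Trim24, a nuclear receptor cofactor and ligase for p53, fell from 68.0, 84.4 and 82.3 to 53.8, 62.1 and 58.5 CPM (log2 ratio -0.43, SE 0.10, adjusted p = 0.00569). Trim66, a RING-less member, rose from 0.493, 0.366 and 0.272 to 2.11, 2.28 and 1.47 CPM (log2 ratio 2.38, SE 0.32, adjusted p = 0.000328). Of this class 2 rose, 1 fell and 1 did not pass (75% called, beside 67.1% of all genes). The libraries of the lines overlapped for Trim28 only (75% with no overlap, beside 73.2% of all genes). Both shares are near the background.

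The COS-box, fibronectin and SPRY class had 2 tested genes, both higher in UV2 (100%, beside 33.9% of all genes called higher). Trim9, a brain-enriched ligase that acts in axon guidance downstream of netrin, was at 0.135, 0.0407 and 0 CPM in bEnd.3 and at 6.04, 9.69 and 11.5 CPM in UV2 (log2 ratio 7.30, SE 0.54, adjusted p = 1.59e-05). The size rests on few bEnd.3 counts and was 8.59 without bEnd.3 replicate 1 and 6.64 without bEnd.3 replicate 3. Trim46, which organises axonal microtubules, rose by 0.58 (SE 0.12, adjusted p = 0.00362). In the NHL-repeat class 1 gene rose, 1 fell and 1 did not pass (66.7% called, near the 67.1% of all genes). Trim2, a ligase for neurofilament light chain, rose from 30.6, 34.3 and 29.9 to 81.2, 96.6 and 88.3 CPM (log2 ratio 1.49, SE 0.09, adjusted p = 5.71e-06). Trim32, mutated in a limb-girdle muscular dystrophy, was lower (-0.32, SE 0.09, adjusted p = 0.0164), though not called without UV2 replicate 2 (-0.25), and Trim3 did not pass (0.19, adjusted p = 0.128) but was called with chromosome medians removed (0.44, adjusted p = 0.00584).

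Among the genes with other architectures, Trim13, which is anchored in the endoplasmic reticulum and acts in protein degradation there, rose from 5.38, 6.06 and 5.60 to 16.8, 21.2 and 21.9 CPM. Its log2 ratio was 1.81 (SE 0.14, adjusted p = 1.65e-05), and 1.10 with the chromosome 14 median removed. Of the 5 single-architecture genes 3 rose, Trim37 fell (-0.21, SE 0.07, adjusted p = 0.0221) and Trim45 did not pass (80% called, beside 67.1% of all genes). Trim37 was not called without any 1 of the UV2 libraries (-0.21, -0.19 and -0.21) or with chromosome medians removed (-0.12). The class with no known C-terminal domain had 4 tested genes, 2 higher and 2 lower (100% called, beside 67.1% of all genes). Trim56, which acts with the DNA sensor STING, was lower (-0.39, SE 0.10, adjusted p = 0.00798). Trim8 was higher by 0.26 (SE 0.09, adjusted p = 0.0312), and not called without bEnd.3 replicate 1 or 2 (0.23 and 0.25) or UV2 replicate 2 or 3 (0.29 and 0.18), or when scaled by total counts (0.20, adjusted p = 0.0766).

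The largest falls were in Trim44 and Trim54. Trim44, a RING-less protein with a ubiquitin protease zinc finger, stood at 16.8, 23.2 and 21.6 CPM in bEnd.3 and at 0, 0 and 0.0385 CPM in UV2. It had 1581 counts in bEnd.3 and 1 in UV2, a ratio of 1455 with an exact 95% counting interval of 260.7 to 57500 (adjusted p = 5.51e-07). Its fitted log2 ratio was -10.05, and -11.95 without UV2 replicate 3, which holds the 1 count, and -9.37 under limma-voom. The nearest tested gene before it on chromosome 2, Ldlrad3, was likewise near 0 in UV2, at 0.0422, 0.0485 and 0 CPM against 7.67, 5.74 and 5.29 CPM in bEnd.3. The gene before that, Commd9, was at 15.7, 14.8 and 15.8 CPM in bEnd.3 and 12.3, 12.1 and 12.3 CPM in UV2. Cd44, the first tested gene after Trim44, was at 42.3, 34.2 and 28.98 CPM in bEnd.3 and 58.1, 54.0 and 36.5 CPM in UV2. Trim44 and Ldlrad3 were thus near 0 in UV2 while the tested genes on either side were expressed in both lines, and the cause was not tested.

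Trim54, a muscle RING protein of the sarcomere, was low in bEnd.3 at 4.66, 2.48 and 2.99 CPM and at 0.0422, 0 and 0 CPM in UV2. Its counts were 253 and 1, a ratio of 232.8 with an exact 95% counting interval of 41.4 to 9232 (adjusted p = 3.08e-05). The fitted log2 ratio was -7.44, and -9.37 without UV2 replicate 1 and -6.71 under limma-voom. Of 7 muscle markers, Myog, Myod1, Myh6 and Ckm were at 0 in all 6 libraries and the list summed to 2.376 to 4.005 CPM in bEnd.3 and 1.605 to 2.351 CPM in UV2. Tnni3, a heart troponin in that list, fell with Trim54, from 1.88, 2.12 and 3.50 to 0.971, 1.12 and 1.81 CPM (log2 ratio -0.94, adjusted p = 0.0374), and its part was not tested. Tnnt2, another heart troponin and the other tested gene of the list, went the other way but was not called. It was at 0.404, 0.285 and 0.407 CPM in bEnd.3 and 0.549, 0.678 and 0.540 CPM in UV2 (log2 ratio 0.67, adjusted p = 0.0871). Both tested genes on each side of Trim54 were clearly expressed in UV2, from Atraid at a mean of 48.6 CPM to Cad at 155.5 CPM. Reads are not independent molecules, so these intervals and floors cover counting error only.

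**Figure D4:**
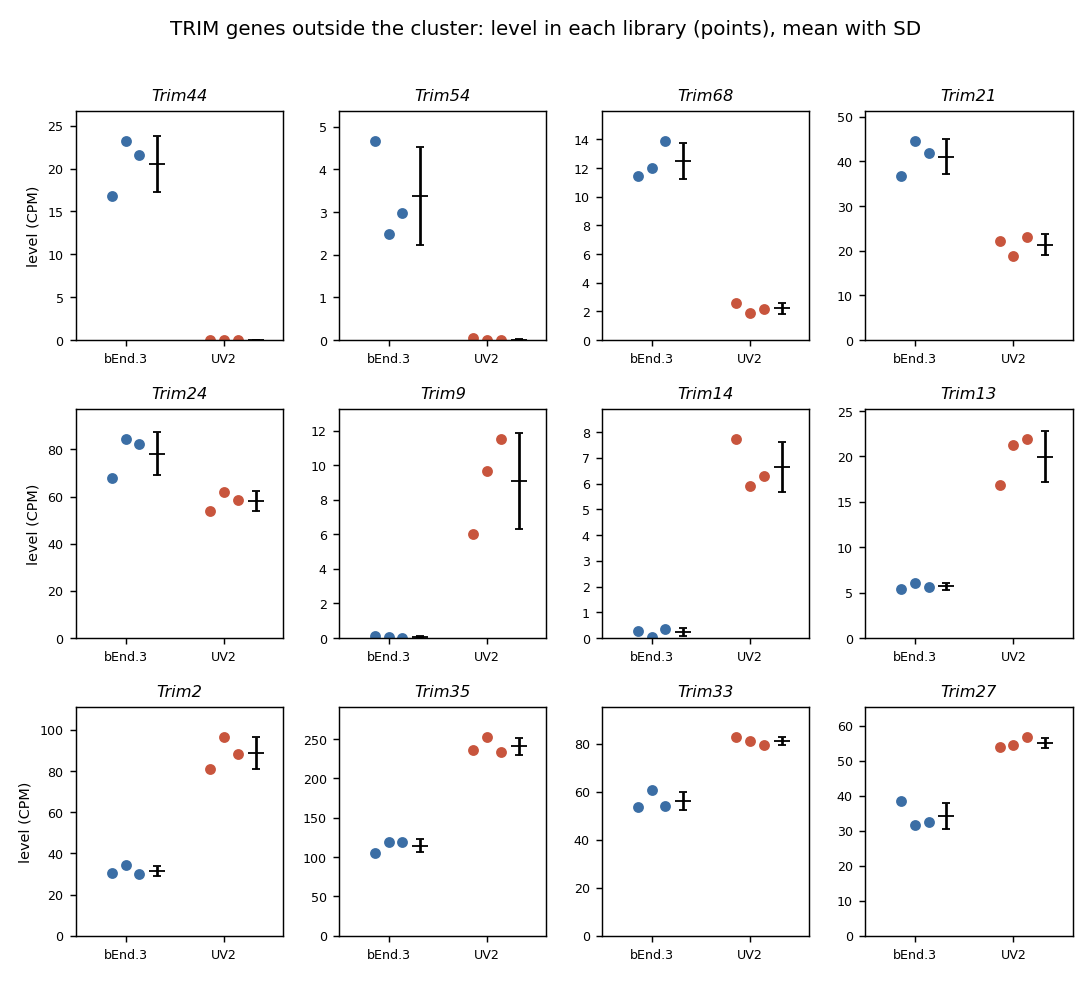
Panels show 12 TRIM genes outside the cluster, with the level in CPM (y axis, starting at 0) in each library as points and the mean with SD beside them. The libraries of the lines separate in every panel, and Trim44 and Trim54 are at or near 0 in UV2 and Trim9 and Trim14 near 0 in bEnd.3.

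Ordered by level per length of exon (CPM per kb), the TRIM genes were led by Trim25 at 72.0 ± 6.06 in bEnd.3 and 77.0 ± 5.39 in UV2 (mean ± SD, n = 3). In bEnd.3 it was followed by Trim30a (54.8 ± 1.17), Trim28 (49.2 ± 2.77) and Trim12c (42.1 ± 4.10). In UV2 the next were Trim35 (52.1 ± 2.29), Trim28 (48.3 ± 2.05) and Trim30a (42.5 ± 0.725). Trim35 stood at 24.8 ± 1.75 in bEnd.3, and Trim12c at 21.5 ± 0.957 in UV2. Trim35 and Trim28 were within the sum of their SDs in UV2. Trim40 stayed under 1 CPM in all libraries, with 1 count in bEnd.3 and 51 in UV2, a ratio of 55.4 with an exact 95% counting interval of 9.51 to 2231, and it was named after its values were seen.

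**Figure D5:**
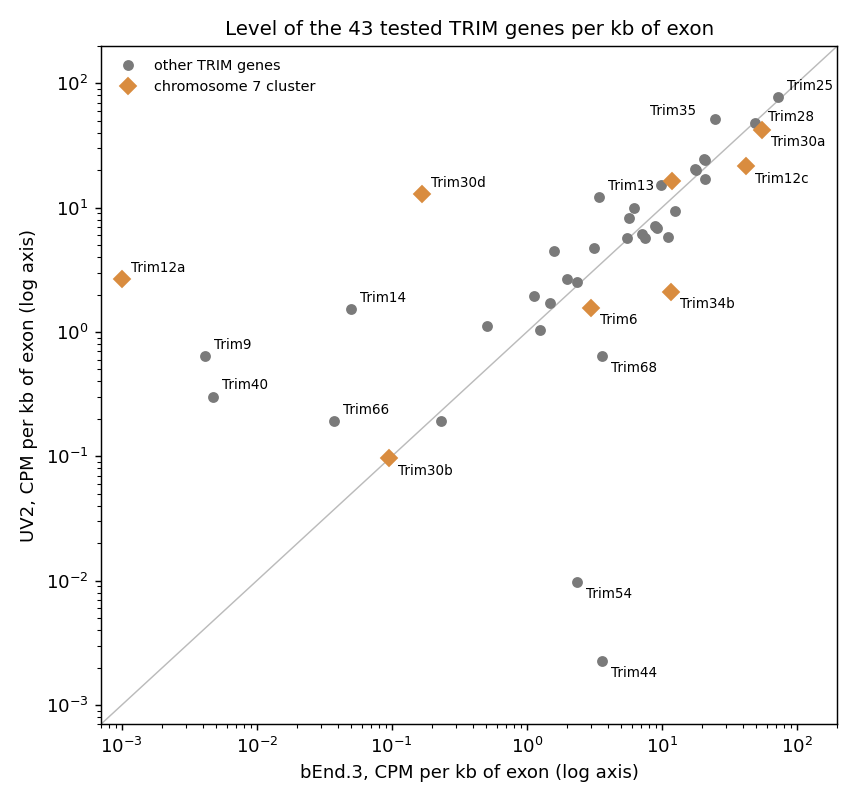
Each point is 1 of the 43 tested TRIM genes, at its mean level per kb of exon in bEnd.3 (x axis) and UV2 (y axis), both on log axes, with the line of equal levels and the cluster as orange diamonds. Trim25, Trim28 and Trim30a lie near the line at the top, Trim12a (0 in bEnd.3) is drawn at the left edge, and Trim44 and Trim54 lie far below the line.

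Genes that work with TRIM proteins were counted from lists. TRIM proteins that go by other names had 4 tested genes, 2 higher and 2 lower (100% called, beside 67.1% of all genes). Pml, the organiser of nuclear bodies, fell from 179, 171 and 176 to 124, 112 and 98.2 CPM (log2 ratio -0.65, SE 0.09, adjusted p = 0.000427). Mid1, a microtubule-bound ligase on the X chromosome, rose from 2.91, 3.58 and 4.00 to 143, 112 and 117 CPM (log2 ratio 5.14, SE 0.15, adjusted p = 1.8e-07). Its relative Mid2, named outside the rule given below, fell by 0.58 (SE 0.13, adjusted p = 0.00554). The median log2 ratio over 289 abundant X chromosome genes was 0.07.

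In the list of interferon induction and response, 21 of 22 genes were tested, with 12 higher, 4 lower and 5 not called (76.2% called beside 67.1% of all genes, and 57.1% higher beside 33.9%) and a median log2 ratio of 0.40 beside -0.01 for all genes. The genes higher in UV2 include the RNA sensors Ddx58 and Dhx58, the adaptors Mavs and Tmem173, the kinases Tbk1 and Ikbke, and the transcription factors Stat2 and Irf9, which act in the type I interferon response. Ikbke rose from 6.59, 4.03 and 4.31 to 25.8, 18.8 and 26.7 CPM (log2 ratio 2.26, SE 0.22, adjusted p = 6.45e-05). Irf9, named outside the rule given below, rose from 87.2, 102 and 105 to 175, 184 and 196 CPM (log2 ratio 0.92, SE 0.09, adjusted p = 6.45e-05). Irf3, the transcription factor that induces interferon beta, fell from 63.1, 67.7 and 79.2 to 40.9, 38.4 and 44.2 CPM (log2 ratio -0.77, SE 0.10, adjusted p = 0.000308). Tyk2, Ifnar2 and Ifngr2 fell too, and Irf7, Ifih1, Mb21d1, Traf6 and Ifnar1 did not pass. Interferon beta itself, Ifnb1, was too low to be tested, at 0.0814 CPM or less in each library. Cd68, the leukocyte marker above 1 CPM, moved with this list, at 158, 88.9 and 100 CPM in bEnd.3 and 252, 262 and 342 CPM in UV2, and its part was not tested.

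E2 enzymes, which hand ubiquitin to TRIM ligases, gave 4 higher, 6 lower and 4 not called of 14 (71.4% called, near the 67.1% of all genes), with a median of -0.12. Ube2e1 rose (0.81, SE 0.11, adjusted p = 0.000345) and Ube2e3 fell (-0.60, SE 0.12, adjusted p = 0.00289). Partners of Trim28 in silencing gave 6 higher, 2 lower and 9 not called of 17 (47.1% called, beside 67.1% of all genes), with a median of 0.08. Among them the histone deacetylase Hdac1 rose from 56.6, 57.5 and 53.9 to 120, 138 and 104 CPM (log2 ratio 1.11, SE 0.11, adjusted p = 6.01e-05). The DNA methyltransferase Dnmt3a fell from 72.4, 102 and 101 to 32.3, 34.5 and 37.2 CPM (log2 ratio -1.41, SE 0.14, adjusted p = 6.76e-05).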

How the data were processed

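RNA-seq libraries were made with the TruSeq Stranded mRNA kit, per the labels' protocols, for 3 samples labelled bEnd.3 and 3 labelled UV2. The authors deposited expected counts per gene symbol, not normalized, and STAR, RSEM, Trim Galore and mm10 are named in the submitters' processing notes. Which tool versions, annotation and strand setting were used is not given in these sources.

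Expected counts were rounded, genes kept by filterByExpr (12720 of 24411), scaled by TMM and tested by the quasi-likelihood method of edgeR, line being the only term. TMM factors were 0.969 to 1.027 and the biological coefficient of variation was 0.124. A gene at 0 in a line was set against 3 counts over its 3 libraries, and one with 1 to 3 counts has an exact 95% counting interval. Near copies were summed and refitted. Chromosome medians used genes with edgeR's average log2 CPM above 3.

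Members, lists and tests were chosen with earlier results of these data known. The rule named every cluster gene, the 8 highest and 8 lowest called members of at least 1 CPM, the extremes of each class and pathway list, the 6 most abundant members not called, and Trim21, Trim24, Trim25, Trim27, Trim28, Trim33, Trim47 and Trim56. On 3 simulated sets with 200 changed genes among 12646 to 12666 tested, 86.3% of 2-fold and 98% of 4-fold changes were called. In these sets 5.95% of calls were unchanged genes. In the data 67.1% of tested genes were called, so the simulated shares do not describe a comparison with that many differences. Replicates were not copies of each other (chi-square per degree of freedom 11.3 to 38.4). A gene of the interferon list and one of the marker lists are counted but not reported here by name. Marker lists not given in the report were epithelial (none of 5 at 1 CPM) and erythroid (0.359 to 0.936 and 0.591 to 4.20 CPM). Computation used Python 3.11.15 with Biopython 1.88 and matplotlib 3.10.9, and edgeR 4.0.16, DESeq2 1.42.0 and limma 3.58.1 under R 4.3.3.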

Additional observations from a re-analysis of the deposited data

How the results depend on the processing

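A test for changes beyond 2-fold left 2470 of all genes (19.4% of 12720 tested). Of 43 tested TRIM genes it left 8 higher and 4 lower in UV2. Among the cluster genes it left 2 higher (Trim12a and Trim30d) and 1 lower (Trim34b). Under the other alternatives (scaling by total counts or by size factors of the DESeq2 kind, no filter on low counts, at least 1 CPM in 3 libraries, the DESeq2 test, limma-voom, and counts not rounded) and with each library left out, counts of TRIM genes stayed within 1.5 times their reported values. Without 1 library, 15 to 19 TRIM genes were higher and 11 to 14 lower, and the cluster kept 3 higher and 4 lower. Of all tested genes 60.36% to 67.43% were called there. The summed Trim12 pair ranged from -0.80 to -0.67 there, the Trim30 pair from -0.03 to 0.01 and the Trim34 pair from -0.29 to -0.09. Replicate numbers did not pair the libraries by the rule used (correlations of same-numbered libraries 0.0854, 0.161 and 0.2, though each library correlated best with its own number). The replicate block gave 19 TRIM genes higher and 14 lower, adding Trim41 and Trim47, with 68.25% of all tested genes called. Removing chromosome medians, added after the data were seen, gave 17 TRIM genes higher and 11 lower, with 61.82% of all tested genes called. It ended the calls of Trim23, Trim26, Trim27, Trim30a and Trim37, turned Trim23 to -0.11, reversed Trim28 to 0.23 and called it, and called Trim3. Total counts ended the calls of Trim8 and Trim26 and added Trim41. Only 3 libraries per line limit the precision, and at this depth genes of a few counts have wide intervals. Trim40 was not tested under the filter of 1 CPM.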
